A study of Mus musculus with 48 samples.

Results

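Expression of 32 genes that mark microglia and the macrophages of the brain's borders was followed across 3 brain regions of mice that carry a deletion on chromosome 7. The genes were a preset list of symbols. Each symbol matched 1 row of the deposited gene-level count table, so the list covered 32 of its 47069 genes. All 32 passed the filter on low counts in every comparison. RNA was sequenced from the cortex, striatum and cerebellum of 16 mice, which gave 48 libraries. 8 mice carried the 16p11.2 Deletion, that is a deletion of the mouse 7qF3 stretch that corresponds to the human 16p11.2 region, and 8 were wild type. All were of the strain C57BL/6N:129Sv, and each genotype held 4 males and 4 females. For age the labels give a date, 1 for all males and another for all females, which means that an effect of sex and an effect of date cannot be told apart. The samples are bulk tissue, and no cell type was sorted. The groups therefore stand for whole pieces of each region, with 1 piece of each region from each animal.

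Microglia are the resident macrophages of the brain. They depend on signalling through the CSF1 receptor, survey the tissue with purinergic and chemokine receptors, and make the C1q proteins that start the classical complement cascade and tag synapses and debris for removal. Macrophages of the meninges, the perivascular spaces and the choroid plexus are related cells that share many of these genes and add others, such as the mannose receptor Mrc1 and the class II chaperone Cd74. The 32 genes comprised 9 surface receptors and secreted proteins typical of microglia at rest, the CSF1 receptor with 3 transcription factors, 3 C1q chains, 4 adapters and receptors that signal through ITAM motifs, 4 leukocyte surface and cytoskeletal genes, 4 genes of lysosome and phagocytosis, 3 genes enriched in border macrophages or in antigen presentation, and the fructose transporter Slc2a5.

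The genes lie on 15 mouse chromosomes, and none lies in the deleted stretch. C1qa, C1qc and C1qb sit side by side within 18.7 kb of chromosome 4, and P2ry13 lies 5.4 kb from P2ry12 on chromosome 3. Tyrobp and Siglech are the members on chromosome 7, at 96.3 Mb and 70.9 Mb from the deleted stretch. In the GENCODE vM21 annotation of GRCm38, C1qb is at chr4:136880129-136886187 on the minus strand, Cx3cr1 at chr9:119901616-120069879 on the minus strand and Mpeg1 at chr19:12460779-12465283 on the plus strand. 11 members overlap another annotated gene, among them Cx3cr1, P2ry12, P2ry13, Gpr34 and Csf1r. Whether the counting used strand is not given in the sources used here, so reads of such a pair may not be separable.

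RefSeq promoters on GRCm38.p6 were matched by symbol for 23 of the 32 genes. PU.1, the product of Spi1, belongs to the ETS family of transcription factors and is required for macrophage development, and IRF8 acts with it. The letters AGGAAG, a common ETS core, were searched on both strands in the 250 bases before each start. They occurred at 15 of 23 members, or 65.2%, and at 32.3% of the 27018 genes in the promoter table. The longer form GAGGAAGT, which contains AGGAAG, occurred at 1 member, C1qc, or 4.35%, against 2.79% of all genes. The IRF core, GAAA followed by any 2 bases and GAAA again, occurred at Aif1 and Ctss, or 8.7%, against 3.46%, and the TATA letters TATAAA at 5 members, or 21.7%, against 14.3%. The MEF2 letters CTAAAAATA were found at 0 members, against 0.537% of all genes. A match of letters is not a measured binding site. The promoters below are those of 5 genes that the results turn on: a C1q chain, a purinergic receptor, Trem2, the protease Ctss and the border macrophage gene Mrc1. Each line gives the 250 bases before the RefSeq start, 5′ to 3′ on the gene's own strand, and capitals mark AGGAAG, its reverse complement CTTCCT, or the IRF core. Positions are those of the whole 250 bases. The C1qb promoter (chr4:136886201-136886450, minus strand) has 1 ETS core, as have those of P2ry13 (chr3:59210883-59211132, minus strand) and Trem2 (chr17:48346151-48346400, plus strand). The Ctss promoter (chr3:95526536-95526785, plus strand) has the IRF core and no ETS core. That of Mrc1 (chr2:14229164-14229413, plus strand) has 3 ETS cores.
C1qb: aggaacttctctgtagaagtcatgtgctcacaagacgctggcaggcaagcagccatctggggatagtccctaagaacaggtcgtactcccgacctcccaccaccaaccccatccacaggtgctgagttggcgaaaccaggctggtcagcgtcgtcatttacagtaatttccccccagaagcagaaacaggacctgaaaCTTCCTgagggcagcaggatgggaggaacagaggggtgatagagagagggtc
P2ry13: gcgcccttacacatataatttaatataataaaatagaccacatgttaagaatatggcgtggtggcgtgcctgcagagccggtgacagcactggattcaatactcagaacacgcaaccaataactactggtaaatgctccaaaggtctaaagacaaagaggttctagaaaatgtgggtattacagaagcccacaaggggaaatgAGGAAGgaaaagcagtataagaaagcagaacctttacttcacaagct
Trem2: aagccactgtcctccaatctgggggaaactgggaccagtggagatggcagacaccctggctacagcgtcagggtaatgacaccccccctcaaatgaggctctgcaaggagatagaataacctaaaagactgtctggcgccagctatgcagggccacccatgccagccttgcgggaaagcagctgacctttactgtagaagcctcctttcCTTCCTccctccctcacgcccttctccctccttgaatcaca
Ctss: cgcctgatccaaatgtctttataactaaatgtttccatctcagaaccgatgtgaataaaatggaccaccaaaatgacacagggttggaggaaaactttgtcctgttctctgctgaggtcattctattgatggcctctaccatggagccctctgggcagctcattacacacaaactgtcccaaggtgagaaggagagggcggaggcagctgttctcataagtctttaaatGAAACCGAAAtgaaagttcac
Mrc1: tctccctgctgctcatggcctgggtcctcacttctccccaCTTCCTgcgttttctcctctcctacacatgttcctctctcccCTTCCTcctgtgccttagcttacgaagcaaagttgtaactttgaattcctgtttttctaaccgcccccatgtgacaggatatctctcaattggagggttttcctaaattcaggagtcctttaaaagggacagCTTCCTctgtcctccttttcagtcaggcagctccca

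Gene counts summed to between 29244745 and 60751792 per library, with a median of 32232112. In deletion animals, 20 of 30 genes tested in the deleted stretch were called lower in cortex, 20 of 33 in striatum and 21 of 32 in cerebellum, with median log2 differences of -1.09, -1.03 and -1.07, which matched the labels. One of them is Coro1a, an actin regulator of leukocytes that neurons also express, whose mean was 71.2 CPM (read counts scaled to the size of the library) in deletion against 160 CPM in wild-type cortex. Genes of blood monocytes, neutrophils and lymphocytes were scarce: 0 of 10 monocyte and neutrophil genes passed the low-count filter in cortex and striatum and 1 in cerebellum. Genes of striatal identity were called higher in striatum than in cerebellum for 14 of 16 in wild-type animals. They did not separate striatum from cortex: 0 of 16 genes of striatal identity were called between striatum and cortex in wild-type animals (quasi-likelihood test of edgeR, adjusted p under 0.05, and 0 with an unadjusted p under 0.05), with a median log2 difference of 0.38. Thalamic markers were called higher in that striatum-to-cortex comparison for 8 of 12 genes and choroid plexus markers for 6 of 17. The cerebella of deletion animal D809 and wild-type animal W813 stood apart. Their mean log2 CPM over 10 oligodendrocyte markers was 9.08 and 8.92, against 6.67 to 8.49 in the other cerebella, and their cerebellar identity markers were lowest at 6.07 and 7.54, against 8.14 to 8.87.

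Per kilobase of exon, C1qb, C1qa, cathepsin S and the adapter Tyrobp held the first 4 places among the members in every region. In cortex, C1qb averaged 55.6 ± 15.7 CPM per kb (SD, n = 16), C1qa 46.2 ± 11.8 and Ctss 42.8 ± 5.83. C1qa and Ctss both lay within the SD of C1qb, although C1qb exceeded Ctss by more than the smaller SD of Ctss. Tyrobp (26.7 ± 7.39), which carries the ITAM signal of TREM2 and other receptors, and C1qc (23.5 ± 6.31) followed, and Csf1r stood at 19.6 ± 1.89. The microglial surface proteins Tmem119 (12.4 ± 1.91) and Cx3cr1 (11.9 ± 1.70) lay within their spread of each other. The transcription factors Spi1 (1.16 ± 0.193 CPM per kb) and Irf8 (0.799 ± 0.103) were low, as were Mrc1 (0.515 ± 0.202) and the leukocyte phosphatase Ptprc (0.164 ± 0.0810), the lowest of the 32 in all 3 regions. In striatum and cerebellum Ctss came before C1qa. Lyz2, the lysozyme of macrophages, ranked 15 in cortex, 16 in striatum and 5 in cerebellum, where it averaged 9.81 ± 4.05 CPM per kb. Cd74 ranked 22, 23 and 8 in the same order of regions, with 5.66 ± 5.11 CPM per kb in cerebellum.

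**Figure D1:**
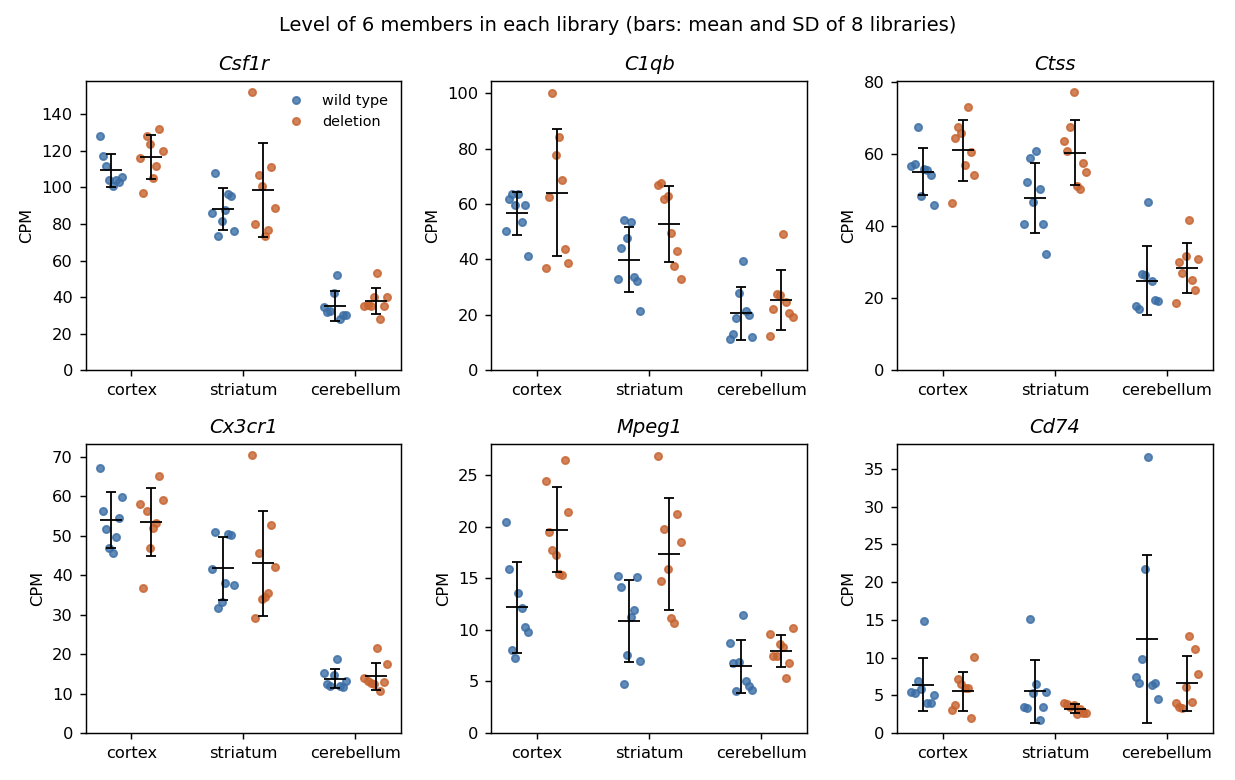
Each point is the level of 1 gene in 1 library in CPM, by region and genotype (8 deletion and 8 wild-type animals per region), and bars give the mean and SD. Csf1r and Cx3cr1 are lower in every cerebellum than in any cortex, whereas Cd74 does not separate the regions and reaches 36.6 CPM in 1 wild-type cerebellum.

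Cortex held more of nearly all these transcripts than cerebellum. In wild-type animals, 29 of 32 members were called higher in cortex and 0 lower, where 24.7% of the 17633 genes tested were called higher and 24.2% lower (edgeR quasi-likelihood test, adjusted p under 0.05). In deletion animals, which are a separate set of mice, the same 29 were called higher and 0 lower, against 23.6% and 24.8% of all 17615 genes tested. By DESeq2 the counts were again 29 and 0 in each genotype. By edgeR, 1 member, Cd74, was lower at an unadjusted p under 0.05 in wild-type animals and 0 were in deletion animals. The median log2 difference over the 32 members was 1.49 in wild-type and 1.42 in deletion animals, where the medians over all genes were -0.04 and -0.05. Within animals, 28 members were higher in the cortex than in the cerebellum of the same mouse in 16 of 16 mice. For 12 members, all 16 cortex libraries lay above all 16 cerebellum libraries. These within-animal and library counts were not made over all genes. In bulk tissue, fewer cells of a type and less RNA per cell cannot be told apart.

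Over the 9 surface receptors and secreted proteins the median log2 difference was 1.95 in wild-type animals. Cx3cr1, the receptor of the neuronal chemokine CX3CL1, ranged from 45.7 to 67.1 CPM with a median of 53.1 in wild-type cortex and from 11.7 to 18.7 with a median of 12.8 in wild-type cerebellum. In deletion animals its cortex values ran from 36.8 to 65.1 CPM with a median of 54.8, and its cerebellum values from 10.7 to 21.5 with a median of 13. The lowest cortex was above the highest cerebellum in both genotypes. Its log2 difference was 1.97 (SE 0.13, adjusted p = 1.67e-11, 3.93-fold) in wild-type and 1.88 (SE 0.17, adjusted p = 3.62e-09) in deletion animals by edgeR.

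Siglech, a sialic acid-binding lectin of microglia, gave 2.01 (SE 0.17, adjusted p = 9.91e-10) in wild-type animals, with cortex between 15.4 and 20.4 CPM and cerebellum between 2.87 and 6.24 CPM. The ADP receptor P2ry13 gave 2.01 (SE 0.17, adjusted p = 1.68e-09) and Tmem119, a transmembrane protein used to mark microglia, gave 1.78 (SE 0.16, adjusted p = 5.75e-09). Both had no wild-type library of one region inside the range of the other: P2ry13 ran from 8.63 to 14.2 CPM in cortex and from 1.86 to 4.24 in cerebellum, and Tmem119 from 23.3 to 32 and from 5.44 to 13.2. P2ry12, which guides process extension toward ATP, gave 1.95 (SE 0.27). The other genes of this group were called as well, from Olfml3 with 1.23 (SE 0.30) to Fcrls with 2.42 (SE 0.41), the latter the largest difference among the 32 in wild-type animals. Fcrls ran from 8.10 to 43.8 CPM among wild-type cortex libraries, a range that met that of the cerebellum (1.24 to 8.74 CPM).

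The CSF1 receptor, which microglia need to survive, separated the regions cleanly. Csf1r ran from 101 to 128 CPM with a median of 105 in wild-type cortex and from 28.0 to 52.2 with a median of 32.1 in wild-type cerebellum. In deletion animals the corresponding values were 96.8 to 132 with a median of 118, and 27.9 to 53.2 with a median of 35.5. No cerebellum reached any cortex. The log2 difference was 1.64 (SE 0.12, adjusted p = 1.49e-10) in wild-type and 1.61 (SE 0.14, adjusted p = 1.88e-09) in deletion animals. The myeloid transcription factors were called too, with 1.35 (SE 0.18) for Spi1, 1.48 (SE 0.18) for Irf8 and 1.08 (SE 0.24) for Sall1, the factor that maintains microglial identity, in wild-type animals.

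In wild-type animals the median log2 difference was 1.46 over the 3 C1q chains, 1.5 over the 4 ITAM genes and 1.21 over the 4 lysosomal genes. Differences between these groups of genes were not tested. C1qb ran from 41.4 to 63.7 CPM with a median of 59.7 in wild-type cortex and from 11.4 to 39.5 with a median of 19.4 in wild-type cerebellum. In deletion animals it ran from 37.0 to 100 with a median of 65.7, and from 12.3 to 49.1 with a median of 23.3, so that the regions overlapped through the D809 cerebellum. Its log2 difference was 1.46 (SE 0.24, adjusted p = 2.38e-05) in wild-type and 1.31 (SE 0.26, adjusted p = 0.000165) in deletion animals. C1qa (1.39) and C1qc (1.49) were close to it in wild-type animals.

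Among the ITAM genes, Trem2, a lipid-sensing receptor, differed by 1.67 (SE 0.23), its adapter Tyrobp by 1.28 (SE 0.26), the Fc receptor gamma chain Fcer1g by 1.33 (SE 0.25) and the Fc receptor Fcgr3 by 1.71 (SE 0.19). Laptm5, a lysosomal membrane protein of leukocytes, gave 1.73 (SE 0.14, adjusted p = 1.28e-09), whereas Ptprc gave 1.06 (SE 0.30, adjusted p = 0.00527). Cathepsin S, a lysosomal protease, ran from 45.8 to 67.4 CPM in wild-type cortex and from 17.1 to 46.6 CPM in wild-type cerebellum, with medians of 55.7 and 22.2. Only the W813 cerebellum reached the cortex range. Ctss differed by 1.15 (SE 0.18, adjusted p = 1.49e-05). The smallest of the 29 calls in wild-type animals was Mpeg1, the pore-forming perforin-2 of phagocytes, with 0.91 (SE 0.27, adjusted p = 0.00769), and in deletion animals it gave 1.29 (SE 0.17). Slc2a5, which carries fructose and in brain marks microglia, gave 2.4 (SE 0.27) in wild-type and 1.92 (SE 0.50) in deletion animals.

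**Figure D2:**
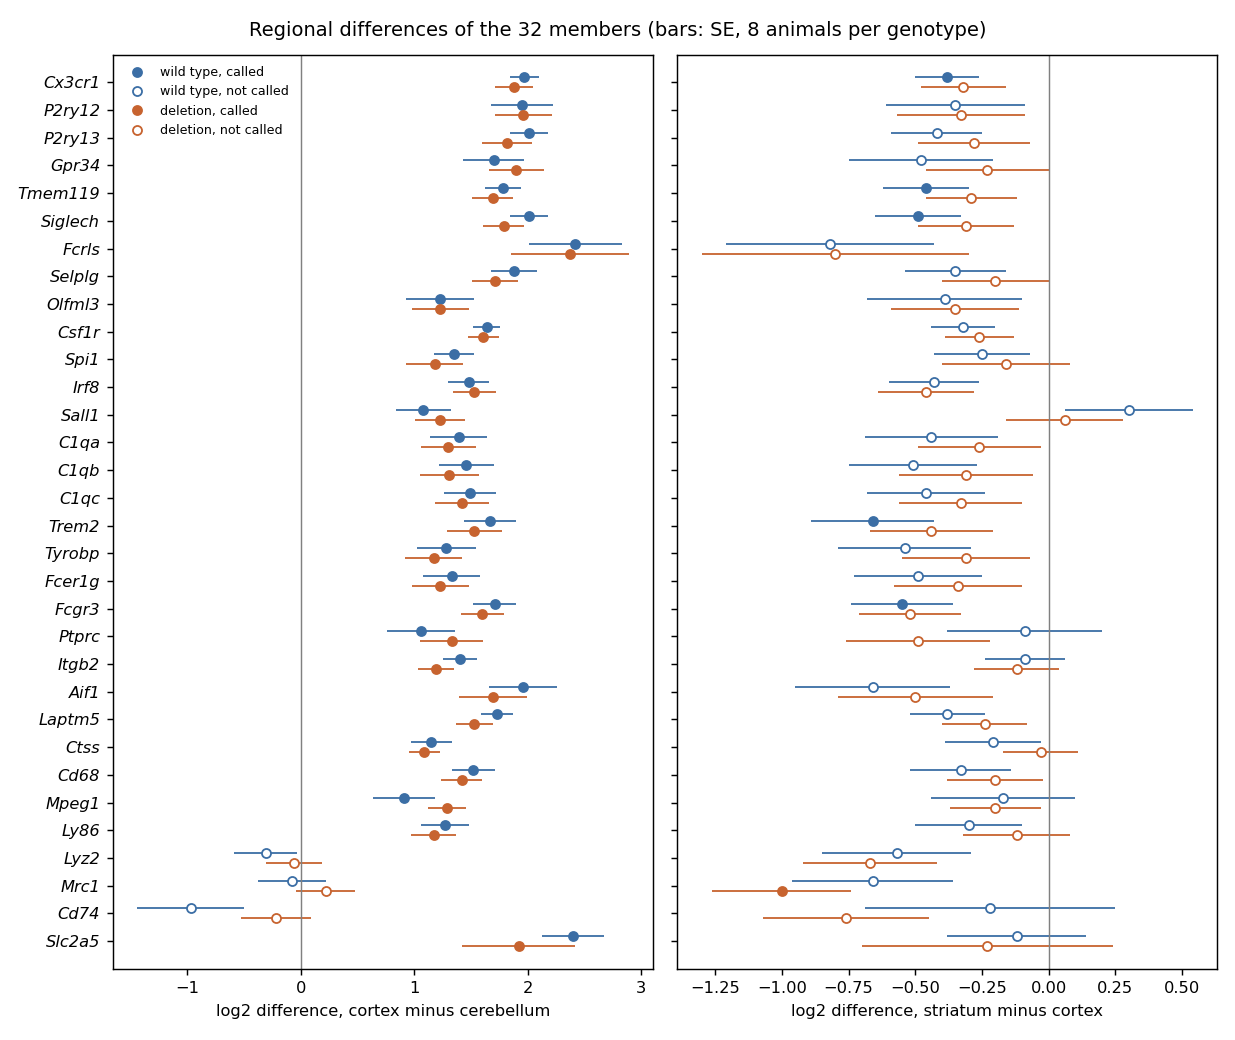
Log2 differences of the 32 genes, cortex minus cerebellum and striatum minus cortex, in wild-type and deletion animals, with SE bars, and filled symbols for adjusted p under 0.05. 29 genes lie to the right of 0 in the first comparison in both genotypes and Lyz2, Mrc1 and Cd74 are open symbols near or left of 0, while nearly all genes lie slightly left of 0 in the second.

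The 3 genes of border macrophages and antigen presentation did not follow the other 29. Cd74, the class II invariant chain, ran from 3.96 to 14.8 CPM with a median of 5.37 in wild-type cortex and from 4.46 to 36.6 with a median of 7.01 in wild-type cerebellum. In deletion animals it ran from 2.04 to 10.1 with a median of 5.99 and from 3.29 to 12.8 with a median of 5.07. The ranges overlapped in both genotypes, and the highest value was again W813. Cd74 differed by -0.97 (SE 0.47, adjusted p = 0.0918) in wild-type and -0.22 (SE 0.31, adjusted p = 0.602) in deletion animals, cortex minus cerebellum. With the animal as a block it was called lower in wild-type cortex, with -0.77 (SE 0.30, adjusted p = 0.0337). Lyz2 gave -0.31 (adjusted p = 0.369) and -0.06 (adjusted p = 0.864), and Mrc1, an endocytic lectin of perivascular macrophages, gave -0.08 (adjusted p = 0.836) and 0.22 (adjusted p = 0.531), in wild-type and deletion animals in that order.

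Striatum resembled cortex in its distance from cerebellum, a comparison that shares its libraries with the one above. 29 members were called higher in striatum than in cerebellum and 3 lower, in each genotype and with the same names. In wild-type animals 25.5% of all genes were called higher and 22.4% lower, and in deletion animals 22.5% in either direction. Over the 32 members the median log2 difference was 1.13 in wild-type and 1.09 in deletion animals, against -0.00 and -0.04 over all genes. Cx3cr1 gave 1.60 (SE 0.12, adjusted p = 4.71e-10) and Csf1r 1.32 (SE 0.12, adjusted p = 4.73e-09) in wild-type animals. C1qb, with 21.3 to 54.1 CPM in wild-type striatum, gave 0.95 (SE 0.24, adjusted p = 0.00213).

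The members called lower in striatum than in cerebellum were the 3 border and antigen presentation genes. Lyz2 ran from 4.27 to 12.1 CPM with a median of 5.84 in wild-type striatum and from 4.69 to 23.5 with a median of 11.0 in wild-type cerebellum. In deletion animals it ran from 6.96 to 10.3 with a median of 7.55 and from 7.65 to 20.3 with a median of 11.2. The ranges overlapped in both genotypes. Lyz2 differed by -0.89 (SE 0.28, adjusted p = 0.0109) in wild-type and -0.73 (SE 0.25, adjusted p = 0.0214) in deletion animals.

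Mrc1, with medians of 1.52 CPM in wild-type striatum and 2.89 CPM in wild-type cerebellum, differed by -0.74 (SE 0.30, adjusted p = 0.0478) in wild-type and -0.78 (SE 0.27, adjusted p = 0.0189) in deletion animals. Cd74 differed by -1.19 (SE 0.47, adjusted p = 0.0419) and -0.97 (SE 0.32, adjusted p = 0.0150). These calls depended on single animals. Without one animal at a time the number of members called lower was 1 to 2 in wild-type and 1 to 3 in deletion animals. In wild-type animals, Lyz2 was among those called in all 8 such fits, while Mrc1 was called only without W815, and Cd74 lost its call without W805, W806, W808, W813, W814 or W815. In deletion animals, Cd74 lost its call only without D809, Lyz2 only without D804 or D809, and Mrc1 only without D802, D804 or D812. With the animal as a block, 2 members, Cd74 and Lyz2, were called lower in wild-type animals. Markers of meningeal fibroblasts moved with these genes: 11 of 11 were called lower in striatum than in cerebellum in wild-type animals, with a median of -1.50. Their part in the result was not tested.

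The difference between striatum and cortex was negative for nearly all members, and how many passed the test depended on whether the fit paired the samples of an animal. Without pairing, in wild-type animals 0 were called higher and 5 lower in striatum, against 9.95% of all genes higher and 8.67% lower. In deletion animals 0 were called higher and 1 lower, against 9.16% and 9.4%. No member was called in both genotypes in this fit. With the animal as a block, 18 members were called lower in wild-type and 4 in deletion animals. Of all genes tested, 2607 of 17633 and 2148 of 17615 were then called lower. Fcgr3, Fcrls and Lyz2 were called in both genotypes with the block. DESeq2 called 0 members higher in either genotype, and 0 had a positive difference with an unadjusted p under 0.05 by edgeR. The difference was negative for 31 of 32 members in each genotype, with medians of -0.40 and -0.31 against 0.02 and -0.00 over all genes, and the exception was Sall1 in both (0.30 and 0.06).

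Cx3cr1 ran from 31.8 to 50.9 CPM with a median of 39.8 in wild-type striatum, below its cortex median of 53.1 and with overlapping ranges, and differed by -0.38 (SE 0.12, adjusted p = 0.0312). Siglech differed by -0.49 (SE 0.16, adjusted p = 0.0334), Trem2 by -0.66 (SE 0.23, adjusted p = 0.0450), Fcgr3 by -0.55 (SE 0.19, adjusted p = 0.0457) and Tmem119 by -0.46 (SE 0.16, adjusted p = 0.0474). Fcgr3 had no wild-type striatum inside the cortex range (7.34 to 12.4 against 13.3 to 18.4 CPM), while the other 4 overlapped. In deletion animals Mrc1 fell by 1.0 on the log2 scale in striatum against cortex (SE 0.26, adjusted p = 0.00892). Its striatum ran from 0.804 to 2.74 CPM with a median of 1.63 and its cortex from 2.53 to 7.14 with a median of 2.89, with D812 the highest cortex and a small overlap.

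The 18 members called with the block in wild-type animals included all 3 C1q chains, Csf1r (adjusted p = 0.0382 against 0.0611 without the block), Laptm5 and Tyrobp, and C1qb then gave -0.56 (adjusted p = 0.00976). DESeq2 called 9 members lower in wild-type and 3 in deletion animals, with Fcgr3 in both genotypes. Of all genes it tested, 1983 of 17612 and 1897 of 17576 were called lower. Leaving out one animal gave 0 to 10 in wild-type animals, with 0 without W807, W808 or W816 and 10 without W813, and 0 to 6 in deletion animals, with 6 without D801. Without D812, Mrc1 was no longer called, at -0.73. Markers that moved with the comparison were those of thalamus, choroid plexus and cortex, the last called lower for 7 of 12 genes, and endothelial markers, lower for 4 of 10. Their part in the result was not tested.

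Other genes of the same cells and pathways were compared from lists drawn up for this purpose. Of 32 other microglia-enriched genes, 26 were called higher and 2 lower in wild-type cortex than in cerebellum, with a median of 1.33. Itgam, the integrin chain CD11b, led them with 2.04 (SE 0.16, adjusted p = 3.23e-10), followed by Inpp5d, a lipid phosphatase downstream of ITAM receptors, with 1.89 (SE 0.17). In striatum against cerebellum 26 were higher and 1 lower, and in striatum against cortex 1 was higher and 2 lower. Among 11 tested ligands and receptors that neurons and other cells direct at microglia, 3 were higher and 2 lower in wild-type cortex than in cerebellum, with a median of 0.15. Those 3 were Cx3cl1, the ligand of CX3CR1 (3.14, SE 0.19), Il34, the second ligand of the CSF1 receptor (2.80, SE 0.22), and Cd200 (1.12, SE 0.14), which restrains myeloid cells. Il34 and Cx3cl1 were also lower in striatum than in cortex in wild-type animals, with -0.88 (SE 0.21) and -0.71 (SE 0.18). Cx3cr1 was called lower there too, and Csf1r only with the block. A relation between ligand and receptor levels was not tested.

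Complement genes downstream of C1q were split between the regions. 2 of 11 were higher and 3 lower in wild-type cortex than in cerebellum, with a median of 0.06: the C3a receptor C3ar1, found on microglia, gave 0.87 (SE 0.24), whereas C3 gave -1.98 (SE 0.57) and Serping1, the inhibitor of C1r and C1s, gave -1.63 (SE 0.28). Of 5 tested class II genes, 1 was higher and 2 lower, with a median of -1.16. H2-DMa gave 1.65 (SE 0.21), while H2-Ab1 (-1.40, SE 0.50) and H2-Eb1 (-1.16, SE 0.47) had the sign of Cd74. Among 9 other border macrophage markers 1, Stab1, was higher (0.69, SE 0.14) and 0 lower, with a median of -0.08. In striatum against cerebellum 0 were higher and 5 lower with a median of -0.99, led by the hyaluronan receptor Lyve1 with -1.41 (SE 0.28). Reactive and disease-associated genes were split, 2 higher and 2 lower of 16 with a median of 0.09, with Lpl at 3.88 (SE 0.48) and Spp1 at -2.59 (SE 0.40), both of which neurons or other cells also express. Inflammatory cytokine genes gave 4 higher and 0 lower of 12 with a median of 0.19.

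No member was called between deletion and wild-type animals in any region. By edgeR 0 of 32 had an adjusted p under 0.05 in cortex, striatum or cerebellum, against 0.13%, 0.128% and 0.138% of all genes tested, most of them in the deleted stretch. DESeq2 called 0 as well. At an unadjusted p under 0.05 the members numbered 1, 6 and 1, where all genes numbered 343, 571 and 346. The deletion-minus-wild-type difference was positive for 22, 27 and 27 of the 32, with medians of 0.07, 0.16 and 0.12 on the log2 scale. When one animal was left out, the striatum median stayed between 0.08, without D801, and 0.19, with 23 to 29 members positive. The cortex median was -0.01 without D803. In cerebellum it was -0.0 without D809 and 0.28 without W813, but 0.12 with 26 members positive without both. With the oligodendrocyte marker level as a covariate it was 0.04 in cerebellum, with 23 members positive. With striatal and thalamic levels it was 0.02 with 17 positive in cortex and 0.13 with 23 in striatum. With the choroid plexus level it was 0.04 in cortex, 0.11 in striatum and 0.07 in cerebellum. With the library GC score defined below it was 0.08, 0.15 and 0.18.

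Mpeg1 had the smallest p in cortex. It ran from 15.3 to 26.5 CPM with a median of 18.6 in deletion cortex and from 7.23 to 20.5 with a median of 11.2 in wild-type cortex. All 8 deletion libraries were above the wild-type mean and 3 were above every wild-type library, so the groups overlapped. The log2 difference was 0.69 (SE 0.20, 95% interval 0.27 to 1.11, adjusted p = 0.965). In striatum Mpeg1 ran from 10.7 to 26.9 CPM with a median of 17.2 in deletion and from 4.79 to 15.2 with a median of 11.6 in wild-type animals. There 7 of 8 deletion libraries were above the wild-type mean and 5 above every wild-type library, and the difference was 0.66 (SE 0.25, adjusted p = 1). In cerebellum it was 0.29 (SE 0.22), with ranges of 5.37 to 10.2 and 4.10 to 11.4 CPM. Across 26 alternatives in cortex the Mpeg1 difference stayed between 0.54 and 0.83, with adjusted p from 0.203 to 1. None of these passed the threshold.

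In striatum 5 further members had an unadjusted p under 0.05, and all had an adjusted p of 1. Ctss ran from 50.4 to 77.2 CPM with a median of 59.2 in deletion and from 32.2 to 60.9 with a median of 48.4 in wild-type striatum. All 8 deletion libraries were above the wild-type mean and 4 above every wild-type library. Ctss differed by 0.33 (SE 0.12). C1qb ran from 33 to 67.5 CPM with a median of 55.6 in deletion striatum and from 21.3 to 54.1 with a median of 38.9 in wild-type striatum, a difference of 0.37 with overlapping ranges. C1qa gave 0.36 and Tyrobp 0.38. Cd74 had the opposite sign: it ran from 2.45 to 3.98 CPM with a median of 3.30 in deletion and from 1.66 to 15.1 with a median of 4.37 in wild-type striatum. None of the 8 deletion libraries was above the wild-type mean, and the difference was -0.76 (SE 0.32). Without W807, which had the highest wild-type value, it was -0.40 (adjusted p = 0.993). With the mean level of choroid plexus markers as a covariate, 0 members had an unadjusted p under 0.05 in striatum, while 24 of 32 differences stayed positive with a median of 0.11. Of all 17198 genes tested, 390 had such a p in that fit, against 571 in the main fit. The striata W813 and W816 had the highest choroid plexus levels, 3.85 and 5.61. Without them, 7 members and 527 of 17442 genes had such a p, with 26 members positive and a median of 0.15.

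C1qb, the most abundant member per kilobase, gave 0.18 (SE 0.20) in cortex and 0.29 (SE 0.29) in cerebellum, beside the 0.37 in striatum. Csf1r gave 0.10 (SE 0.07) in cortex, 0.15 (SE 0.13) in striatum and 0.09 (SE 0.15) in cerebellum, and Cx3cr1 gave -0.02, 0.04 and 0.05. In cerebellum the smallest p was that of Cd74, with -1.04 (SE 0.45, 95% interval -1.99 to -0.08, adjusted p = 1). Its cerebellum levels, given above, overlapped between genotypes, and W813 was the highest library. Without W813 the difference was -0.52 (adjusted p = 0.952), and without both D809 and W813 it was -0.67 (adjusted p = 1). Itgb2, the leukocyte integrin chain CD18, gave 0.35 and Siglech 0.22 in cerebellum.

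**Figure D3:**
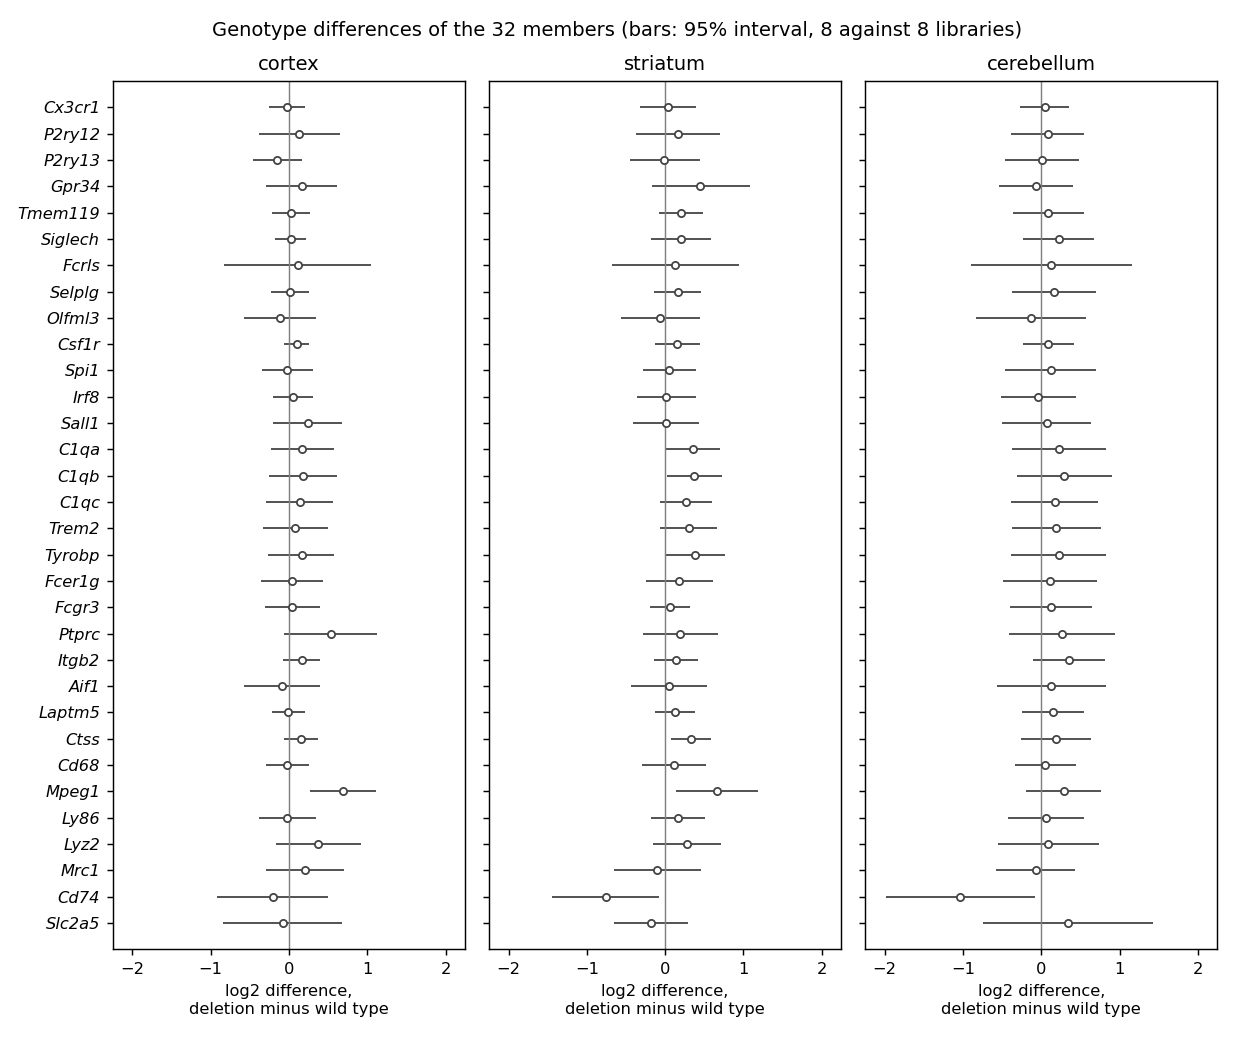
Log2 differences of the 32 genes, deletion minus wild type, in cortex, striatum and cerebellum, with 95% intervals. Almost all intervals include 0, Mpeg1 lies at 0.69 in cortex and 0.66 in striatum, and Cd74 lies at -0.76 in striatum and -1.04 in cerebellum.

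Other genes of the same pathways were not called by genotype in any region. Of the 32 other microglia-enriched genes 0 were called, with medians of 0.03, 0.08 and 0.08 in cortex, striatum and cerebellum. C3ar1 was higher in deletion animals without passing the test, by 0.41 in cortex (adjusted p = 0.965) and 0.70 in striatum (adjusted p = 1), both with an unadjusted p under 0.05. The class II gene H2-Ab1 had the sign of Cd74 in striatum, with -1.09 (adjusted p = 1), and 0 of the 5 class II genes tested there were positive. Coro1a in the deleted stretch was called lower in all 3 regions, by 1.16 on the log2 scale in cortex (SE 0.20, adjusted p = 0.0263). Marker lists of other cells also moved with genotype without a call: red blood cell genes had medians of 0.76, 1.15 and 0.95, choroid plexus genes -0.68, -1.01 and 0.01, and striatal identity genes 0.39, 0.45 and 0.21. Deletion animal D804 stood far above all others in red blood cell genes. Its mean log2 CPM over them was 3.85, 3.61 and 4.49, where the next highest library had 1.71, 1.28 and 2.58. The part of these lists in the members' differences was not tested.

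The genotype difference did not itself differ between regions by the tests run. By edgeR 0 members were called in each of the 3 pairs of regions, where 0% of the 18531 genes tested were called, and 0 members had an unadjusted p under 0.05. For Mpeg1 the cortex difference minus the cerebellum difference was 0.39 (SE 0.32). For Cd74, which was negative in both regions and nearer 0 in cortex (-0.21 against -1.04), it was 0.74 (SE 0.57). Neither passed.

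Males and females, whose labels also differ in date, gave 0 called members in each region by edgeR, against 0.0356% of all genes in cortex, 0.134% in striatum and 0.042% in cerebellum. At an unadjusted p under 0.05 there were 1, 15 and 1 members, and DESeq2 called 0 in cortex, 5 higher in males in striatum and 0 in cerebellum. Of all 17156 genes that DESeq2 tested in striatum, 1050 were called higher and 1507 lower in males. By edgeR, 5661 of 17198 genes had an unadjusted p under 0.05 in striatum. The smallest adjusted p there was that of Laptm5, 0.0829, with a male-minus-female difference of 0.45 (SE 0.12). Spi1 (0.53, adjusted p = 0.0874), C1qb (0.53, adjusted p = 0.0886) and Tyrobp (0.54, adjusted p = 0.0899) followed. Over the members the medians were 0.07 in cortex, 0.23 in striatum and -0.23 in cerebellum. With a score of each library's base composition as a covariate, defined below with the variation among libraries, they were -0.03, 0.15 and -0.02. In striatum 3 members and 1266 of all 17198 genes tested then had an unadjusted p under 0.05. Red blood cell genes (median 1.48), choroid plexus genes (-1.36) and cortical identity genes (-1.26) moved with the striatal comparison, and their part was not tested. The male D804 had the highest red blood cell level among the striata, at 3.61.

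The genotype difference was also compared between males and females. 0 members were called in each region, where 0% of all genes were called, and 1, 1 and 0 members had an unadjusted p under 0.05 by edgeR in cortex, striatum and cerebellum. DESeq2 called 0. In striatum the male-minus-female contrast of the genotype difference was positive for 29 of 32 members, with a median of 0.35. The median genotype difference in striatum was 0.32 in males alone and -0.02 in females alone. Choroid plexus genes moved with it, with a median of 2.04 for the same contrast, and their part was not tested. The members with an unadjusted p under 0.05 were Laptm5 in striatum, with 0.47, and P2ry13 in cortex, with -0.61.

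Among libraries of a region, the members varied together to different degrees. The mean log2 CPM of the 32 genes ran from 3.66 to 4.17 with a median of 3.91 in deletion cortex and from 3.72 to 4.03 with a median of 3.88 in wild-type cortex. In striatum it ran from 3.31 to 4.08 with a median of 3.56, and from 3.05 to 3.65 with a median of 3.49. In cerebellum it ran from 2.12 to 3.22 with a median of 2.44, and from 2.03 to 3.16 with a median of 2.28. Every cerebellum was below every cortex, and the genotypes overlapped in each region. The highest cerebella were D809 and W813, whose oligodendrocyte markers were also the highest, and the highest and lowest striata were D801 and W816, of which D801 had the highest striatal identity level, 8.62, and W816 had 5.61 for choroid plexus markers.

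**Figure D4:**
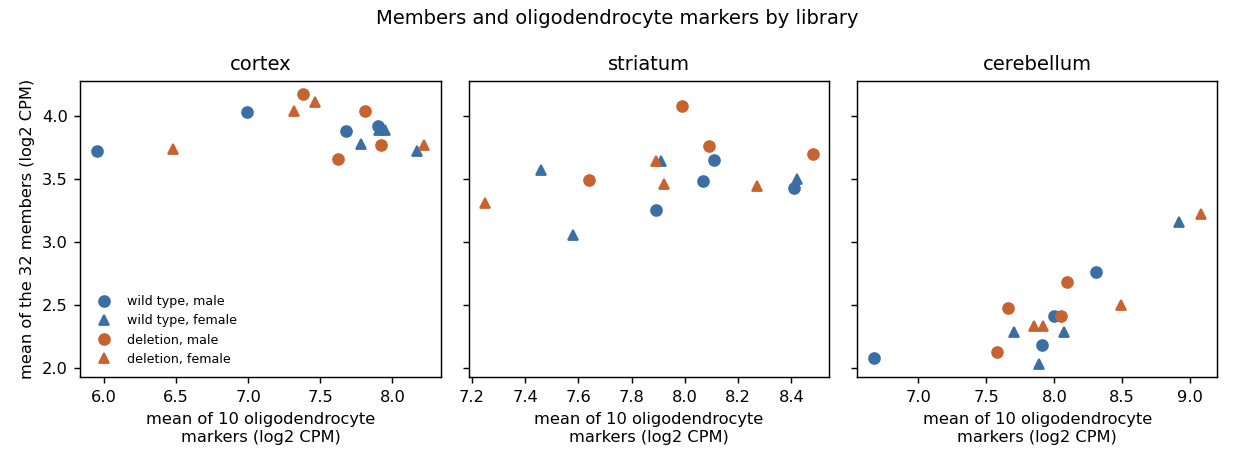
Each point is a library, with the mean log2 CPM of the 32 genes against the mean log2 CPM of 10 oligodendrocyte markers, by region and genotype. The cerebella D809 and W813 lie apart from the other cerebella, at 3.22 and 3.16 for the 32 genes and 9.08 and 8.92 for the oligodendrocyte markers.

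After the genotype-by-sex means were subtracted, 303 of the 496 pairs of members were positively correlated over the 16 cortex libraries, 379 in striatum and 422 in cerebellum, with median Pearson r of 0.236, 0.345 and 0.565. These are descriptions over libraries that share base composition and tissue makeup. Each member was also compared with the mean of the other 31. In cortex r was highest for Fcgr3 (0.873) and negative for 7 members: Ptprc (-0.659), P2ry12 (-0.568), Sall1 (-0.478), Mpeg1 (-0.386), Gpr34 (-0.349), P2ry13 (-0.224) and Cx3cr1 (-0.077). In striatum it was highest for Laptm5 (0.933), with 4 negative, and in cerebellum for Selplg (0.942), with 2 negative.

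In cortex and cerebellum, members with a higher GC content and a shorter transcript tended to follow the others more closely. Across the 32 members, Spearman's rho between this r and the GC content of the gene's longest annotated transcript was 0.51 in cortex, 0.19 in striatum and 0.52 in cerebellum. With the length of that transcript it was -0.46, -0.02 and -0.48. The libraries themselves differed in base composition. A score for each library was taken as the median deviation of genes in the top 20% of GC content minus that of genes in the bottom 20%. Over the 16 cortex libraries this score correlated with the level of Aif1, a calcium-binding protein known as IBA1, at r = 0.93 and with Tyrobp at 0.91, and with P2ry12 at -0.92 and Sall1 at -0.93. Aif1 and P2ry12, both used to mark microglia, thus had relations of opposite sign to it. With the score as a covariate, 0 members were called by genotype in any region. At an unadjusted p under 0.05 by edgeR there were 6, 8 and 3 members in cortex, striatum and cerebellum. Among all genes tested, 875 of 16877, 1924 of 17198 and 1410 of 16672 had such a p.

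**Figure D5:**
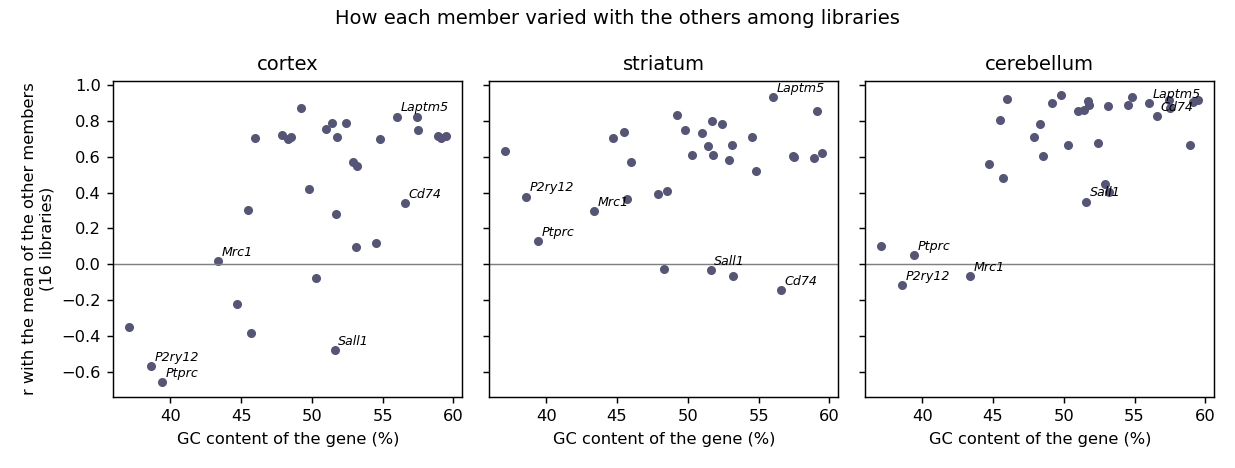
For each of the 32 genes, Pearson r of its level with the mean of the other 31 over 16 libraries against the GC content of its longest annotated transcript, by region. In cortex the 7 genes below 0 include P2ry12 and Ptprc, and in cerebellum 2 genes lie below 0.

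Of 13951 genes expressed above 1 CPM in every region, those whose pattern was most like the members' mean were themselves members: Laptm5 with a mean r over the 3 regions of 0.892, Fcgr3 with 0.88 and Tmem119 with 0.833. For a member, the members' mean in this ranking included the member itself, which raises its r. Members and genes outside the list were therefore not ranked on equal terms. The nearest genes outside the list were Unc93b1 (0.812), a chaperone of endosomal Toll-like receptors, Lag3 (0.801), Hcls1 (0.799), Abi3 (0.796), Arhgap45 (0.793), the class II gene H2-DMa (0.789), Stk32c (0.789) and Ctxn1 (0.782), each over 16 libraries per region. P2ry12 ranked 7199 and Ptprc 7667 by the same measure.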

How the data were processed

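Libraries from the TruSeq stranded mRNA kit were run on an Illumina HiSeq 2500, per the labels' protocols. The deposited table holds raw counts, which are whole numbers of reads for each gene and library. Tools named by the submitters' processing notes are STAR 2.4.2a, FastQC 0.10.1, SAMtools and Picard, and builds named are GRCm38 and mm8, with no roles. How reads were counted, with which annotation and strand setting, is not given in the sources used here. Of 47161 features, 92 were spike-in controls, which took 0.0614 to 1.09% of a library and were left out. Symbols came from GENCODE vM21 by Ensembl identifier for 46574 of the genes, and the other 495 held 0.058% of counts.

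Counts were scaled by TMM, filtered with filterByExpr and tested with the robust quasi-likelihood test of edgeR 4.0.16 (limma 3.58.1, R 4.3.3), with Benjamini-Hochberg adjustment over all genes tested and a call at an adjusted p under 0.05. Genotype was fitted within each region with sex as a covariate. Regions were compared within each genotype over its 24 libraries, and the tissue-by-genotype terms over all 48. Levels are CPM, and log2 CPM uses a prior count of 2. Levels are compared between genes only per kilobase of the union of annotated exons. DESeq2 1.42.0 was an alternative, along with other size factors, no low-count filter, another prior count (0.5), each sex alone, marker levels as covariates, the animal as a block and leaving out each animal. After the data were seen, the cerebella of D809 and W813 were left out together and a library GC score was added as a covariate. The pairing comes from the labels, since libraries with 1 animal number are from 1 animal. Deviations from the genotype means of each region, with sex not removed, were correlated between regions. Within the same animal the median r was 0.542 for cortex and cerebellum, 0.479 for striatum and cortex and 0.308 for striatum and cerebellum. The lowest values in an animal were -0.0994, 0.0993 and -0.162. Between different animals of a genotype the medians were -0.0294, -0.0881 and -0.0493. The tests were checked on simulated data. The members and all gene lists were chosen with earlier results of these data known, so that no list has a test of its own.

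All 32 members are accounted for. Full statistics are given for up to 6 called members per comparison with the smallest p, for the 4 most abundant members and, where none was called, for the 4 with the smallest p. From each other list up to 3 called genes with the smallest p, or else the single gene with the smallest p, could be named. Further members were named by role after their values were seen.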

Additional observations from a re-analysis of the deposited data

Results flagged for a closer look

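Within groups of 8 libraries, 8 of 198 groups held a library that lay far from the other 7 by Dixon's criterion at the 95% level, and chance alone flags about 1 in 20 groups. All values are log2 CPM. Among the receptors and transcription factors, Siglech was low in the cortex of deletion animal D802, at 3.78 against 4.19 in the next library. Irf8 was high in the striatum of deletion animal D801, at 2.89 against 2.2, and in the cerebellum of deletion animal D809, at 1.79 against 1.01. Laptm5 was low in the striatum of wild-type animal W816, at 4.32 against 4.76. The other 4 groups concerned Ctss, Cd74, Mrc1 and Slc2a5. Ctss was high in the cerebellum of wild-type animal W813, at 5.54 against 4.74, and Cd74 was high in the cortex of the same animal, at 3.90 against 2.81. Mrc1 was high in the cortex of deletion animal D812, at 2.85 against 2.01. Slc2a5 was low in the striatum of wild-type animal W808, at 0.91 against 1.85.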

How the results depend on the processing

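No member was called by genotype in any alternative run, and 29 were called higher in cortex than in cerebellum in every fit. Striatum against cerebellum kept 29 higher calls with the other tools and filters, but 26 to 29 in wild-type animals (26 without W806, W814 or W815) and 28 to 29 in deletion animals when one animal was left out. Striatum against cortex moved most. In wild-type animals 5 members were called lower, 1 without the low-count filter, 9 by DESeq2, 18 with the replicate block on animal, and 0 to 10 when one animal was left out. In deletion animals 1 was called, 3 by DESeq2, 4 with the replicate block, and 0 to 6 when one animal was left out. Pairing by animal, as the replicate block, also added the call of Cd74 as lower in wild-type cortex than in cerebellum (-0.77) and removed that of Mrc1 in wild-type striatum against cerebellum (-0.78), and changed no other call of a member. Male against female in striatum gave 0 called members and 5 by DESeq2, which called 1050 higher and 1507 lower of all 17156 genes. Differences near 0 changed sign. By genotype in cortex, Cx3cr1 gave 0.12 in females only, 0.05 without D802 and 0.04 without W805. By genotype in striatum, Cx3cr1 gave -0.11 in females only, -0.00893 with the choroid plexus covariate, -0.05 with striatal and thalamic covariates, -0.09 without D801, -0.00315 without D811 and -0.00365 without W807 (range over animals left out -0.09 to 0.10), and Csf1r gave -0.03 in females only. Csf1r by genotype in cerebellum gave -0.00112 without D809 and up to 0.22 without W813. With the GC score as a covariate, male against female gave -0.04 for C1qb and -0.00365 for Ctss in cortex, 0.29 for Cx3cr1 in striatum and 0.05 for Csf1r in cerebellum. Ctss in striatum against cortex gave 0.04 in deletion animals without D810. The causes were not tested. The lowest level of a member in any library was that of Slc2a5, at 0.153 CPM in 1 deletion cerebellum. Depth as a limit on the calls was not tested.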
